A study of Arabidopsis thaliana with 4 samples.

Results

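The ERF, NAC and WRKY genes bound by the floral regulator AGAMOUS (AG) were taken from a chromatin immunoprecipitation and sequencing (ChIP-seq) experiment on Arabidopsis thaliana inflorescences. They are the rows of the authors' deposited target table whose annotation, up to its first semicolon, names an ERF, an AP2 domain, a NAC domain or a WRKY protein. A set of 13 loci of these families (AP2 and its relatives, RAV genes, CUC genes and TTG2) is left out by the rule. Most of these 13 loci are target genes too. The rule gave 35 of the 1958 target genes. Of these, 17 encode ERF or other AP2-domain proteins, 9 encode NAC proteins and 6 encode WRKY proteins. The other 3 only carry the letters: SHOT1 (AT3G60400) and AT1G74120 are annotated as mTERF-related mitochondrial termination factors, and SAP18 (AT2G45640) as a partner of ERF3 and ERF4. Counts below are for the 32 genes of the 3 families unless all 35 are named.

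The AG-GFP plants carried an AG-GFP fusion together with 35S:AP1-GR in the ap1-1 cal-1 mutant background of Ler-0, and the negative control plants carried 35S:AP1-GR ap1-1 cal-1 without AG-GFP. All plants, about 4 weeks old, received 10 μM dexamethasone with 0.01% ethanol and 0.015% Silwet L-77, which starts flower formation through the AP1-GR protein, and inflorescences were taken 4 days later, at an early to intermediate floral stage. An anti-GFP antibody was used in both groups, with 2 libraries each. The fusion protein is called fully functional in the series description, the promoter that drives it is not given there, and the first control library also served another series. The ap1 cal inflorescence is a mass of meristem-like tissue that forms flowers together after induction, so the tissue holds many cell types and binding in one of them cannot be told apart from binding in all. Each score below is the authors' own Poisson score for a peak and no library has a value of its own, so there is no replicate error, the depth is unknown, and a rank describes this peak list only.

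AG is a transcription factor of the MADS-domain family, needed for stamens and carpels, and binds DNA as part of complexes with other MADS-domain proteins. ERF and DREB proteins bind DNA through a single AP2 domain and act in ethylene, cytokinin, cold and drought responses, and some of them act in organ initiation. NAC proteins, named after NAM, ATAF and CUC, act in organ boundaries, secondary walls, senescence and dehydration responses, and WRKY proteins act mainly in defence, with some members in pollen and embryos.

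Most of these genes carried peaks of low or middling score, and 2 reached the top 10% of all peaks. The median highest score of the 32 genes was 177.82 (quartiles 67.5 and 268), against 143.81 for all 1958 target genes (quartiles 78.2 and 286). A score at or above the median peak of the list, 139.67, was held by 19 of the 32 genes (59.4%), against 51.7% of all target genes. Above the upper quartile of the list, 278.78, the count was 7 of 32 (21.9%), against 26.0% of all target genes. At a score of 591.5 or more, which 10% of all peaks reach, it was 2 of 32 (6.25%), against 10.2%. The score distribution of the 32 genes thus lay close to that of the whole table, and no test was made of it.

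The 3 families had unlike median scores in this list. The ERF/AP2 genes had a median of 193.9 (range 47.19 to 338.48). Of these 17 genes, 13 reached the median peak or more (76.5%, 95% exact interval 50.1 to 93.2%). The NAC genes had a median of 68.62 (41.11 to 1290.39), with 3 of 9 at or above it (interval 7.49 to 70.1%). The WRKY genes had a median of 120.9 (55.78 to 646), with 3 of 6 (interval 11.8 to 88.2%). These intervals overlap, and each includes the 51.7% of all target genes. The NAC family therefore held both the highest score, at NAC055, and the lowest, at NAC032. These are descriptions of 1 peak list without a test.

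**Figure D1:**
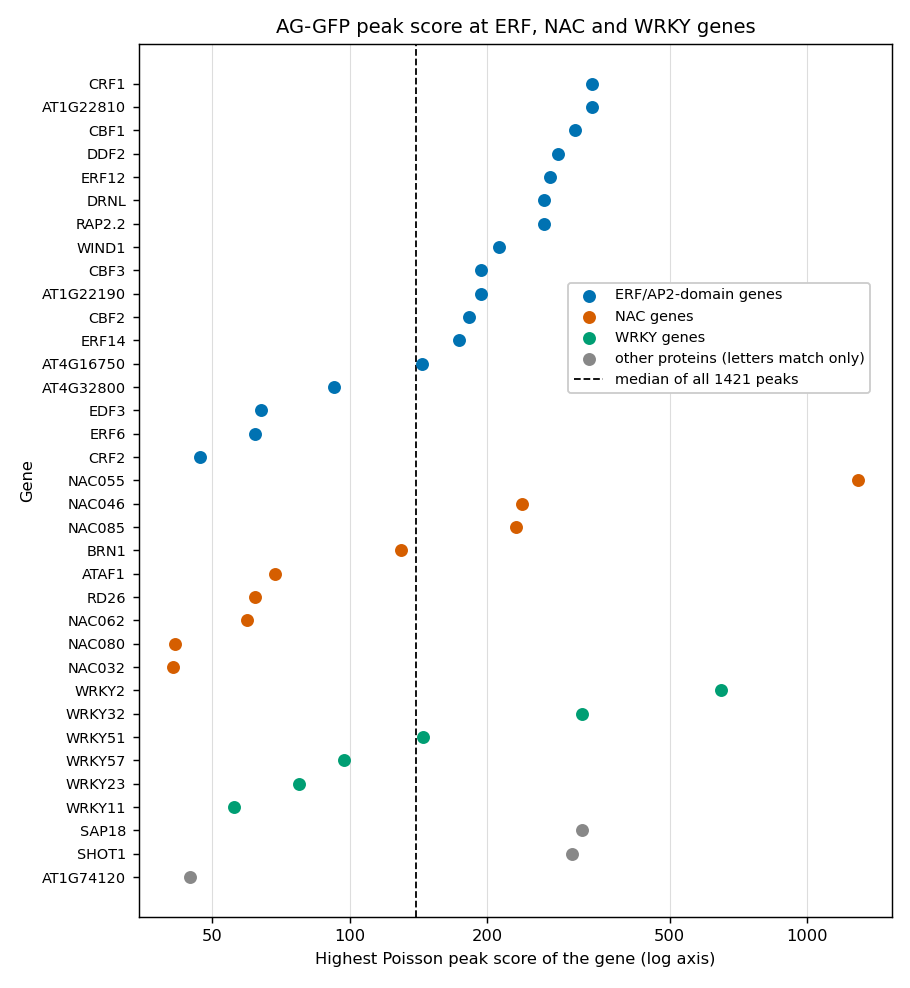
The highest Poisson peak score of each of the 35 genes (log axis), grouped by family and ordered by score within each family. The dashed line is the median of all 1421 peaks, 139.67. NAC055 at 1290.39 and WRKY2 at 646 stand apart to the right. Right of the line lie 13 of 17 ERF/AP2 genes, against 51.7% of all target genes.

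NAC055 (AT3G15500), which acts in abscisic acid and jasmonate responses, had the highest score of the 35 genes. Its only peak, with a score of 1290.39, lay within 1000 bp downstream of the gene (TAIR10 chromosome 3, bases 5236656 to 5236939, 284 bp wide). It ranked 33 among the 1421 peaks of the list, at 9.24 times the median score, and no other target gene was linked to it. Its close relative RD26 (ANAC072, AT4G27410), an activator in the dehydration response, scored 62.03 within 1000 bp upstream, on the other side of the median. The third relative, NAC019, was not in the table.

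The other NAC genes had 1 peak each. NAC046 (AT3G04060), a promoter of leaf senescence, carried a peak of 238.21 within 1000 bp upstream (chromosome 3, bases 1055638 to 1055832), that no other target gene shared. NAC085 (AT5G14490), which acts in the arrest of the cell cycle after DNA damage, had one of 230.49 at 1000 to 2000 bp upstream (chromosome 5, bases 4673132 to 4673416). That peak is also listed within 1000 bp upstream of AT5G14495 and within 1000 bp downstream of AT5G14500. BRN1 (AT1G33280), a root cap gene, carried a peak of 129.73 at 2000 to 3000 bp upstream, and the same peak lay within 1000 bp upstream of AT1G33270.

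The remaining 4 NAC genes beside RD26 were weak targets. ATAF1 (AT1G01720), a stress regulator, was the only NAC gene with a peak inside the gene, at 68.62, and its relative NAC032 (AT1G77450) had 41.11 within 1000 bp upstream. NAC062 (NTL6, AT3G49530), which encodes a membrane-bound NAC protein, had 59.6 at 2000 to 3000 bp upstream, at a peak that 3 other target genes share. NAC080 (AT5G07680), a target of miR164 like CUC1 and CUC2, had 41.45 at 2000 to 3000 bp upstream. That peak is also listed 1000 to 2000 bp upstream of AT5G07675, and its nearest protein-coding gene was AT5G07670.

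Among the WRKY genes, WRKY2 (AT5G56270) had the highest score. WRKY2 acts in the polarity of the zygote and in pollen, and its peak of 646 lay within 1000 bp upstream (chromosome 5, bases 22779096 to 22779425), with rank 122 in the list. The peak is also listed 1000 to 2000 bp upstream of AT5G56260. WRKY34, which acts with WRKY2 in pollen, was not in the table. WRKY32 (AT4G30935) had 321.1 within 1000 bp upstream (chromosome 4, bases 15054017 to 15054644). At 628 bp this was the widest peak of the 35 genes, and it lay nearer to AT4G30940, of which it is also within 1000 bp upstream.

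WRKY51 (AT5G64810), a regulator of jasmonate and salicylic acid defence, had 144.72 within 1000 bp upstream (chromosome 5, bases 25907967 to 25908165), just above the median peak. WRKY57 (AT1G69310), which acts in drought tolerance, had 97.13 at 1000 to 2000 bp upstream, at a peak shared with the peptide gene CLE10. WRKY23 (AT2G47260), an auxin-responsive gene of roots, had 77.58 at 1000 to 2000 bp upstream, and WRKY11 (AT4G31550), a repressor of basal defence, had 55.78 within 1000 bp upstream. All 6 WRKY genes had their peak upstream of the gene, 4 of them within 1000 bp.

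Of the ERF/AP2 genes, 15 have a subfamily in the deposited annotation, 8 in the DREB group and 7 in the ERF group. The DREB subfamily A-1, the cold and gibberellin-linked CBF and DDF genes, had 4 of its 6 genes in the table. The annotation text gives 17 genes for subfamily A-4, of which 2 were in the table, 16 for A-5 (1 in the table) and 8 for A-6 (1 in the table). On the ERF side, 2 of 15 genes of subfamily B-1 were in the table, 1 of 5 of B-2, 2 of 18 of B-3 and 2 of 7 of B-5. All protein-coding genes had a share of 6.62% in the table.

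CBF2 (AT4G25470), CBF3 (AT4G25480) and CBF1 (AT4G25490), the activators of cold-regulated genes, lie side by side on chromosome 4, and their peaks form a cluster. The 3 genes had 8 entries in the region columns of the table, but these came from only 5 peaks between 13016200 and 13023867, a stretch of 7668 bp. The highest was 310.26 within 1000 bp upstream of CBF1, from 13023519 to 13023867, which also lay within 1000 bp upstream of RS40 (AT4G25500). A peak of 193.9 from 13021241 to 13021559 is listed as 2000 to 3000 bp upstream of CBF3 and within 1000 bp downstream of CBF1. CBF3 thus had its highest score at a peak nearer to CBF1, and no peak within 2000 bp upstream.

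CBF2 had peaks in all 3 upstream regions. The nearest scored 181.95, from 13016200 to 13016471, within 1000 bp upstream, and it is also listed for ABCB28 (AT4G25450). The next scored 152.42, from 13017810 to 13018171, and is also listed within 1000 bp downstream of CBF3. The farthest scored 72.68, from 13018355 to 13018509, and lay inside CBF3. A sixth peak of the list in this stretch, with 62.03 from 13021696 to 13021763, is listed for RS40 and not for a CBF gene. The coding sequences of the CBF genes are close copies of each other, and how reads that match several places were treated is not given in the sources used here, so the peak inside CBF3 is uncertain.

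**Figure D2:**
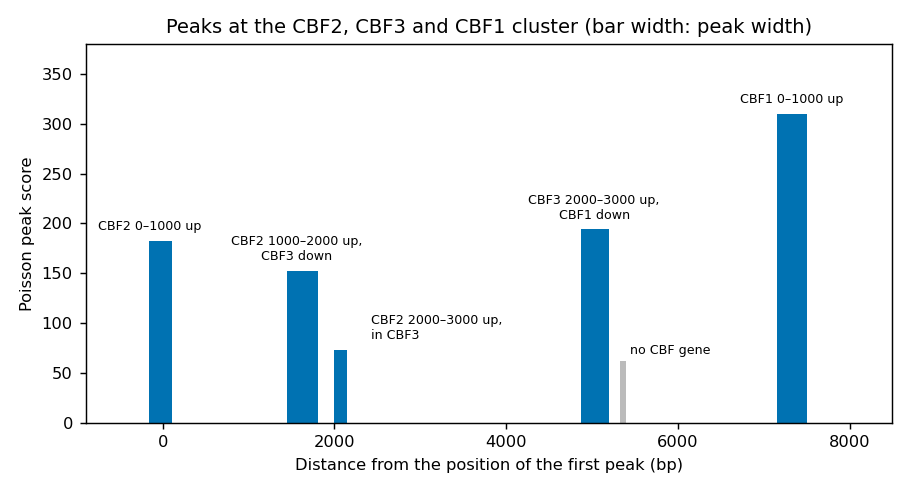
Poisson scores of the 6 peaks in the stretch that holds CBF2, CBF3 and CBF1, against the distance in bp from the position of the first peak. Each bar is as wide as its peak. Blue peaks are listed for a CBF gene, with the region of the table in which they fall, and the grey peak of 62.03 is not. The highest bar is the peak of 310.26 upstream of CBF1, 7326 bp from the first.

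DDF2 (AT1G63030), the fourth gene of subfamily A-1 in the table, lies apart from this cluster on chromosome 1. It had a peak of 285.02 within 1000 bp downstream, from 23366899 to 23367218, that no other target gene shared. Of the other DREB genes, AT1G22810 (subfamily A-5) had 338.48 within 1000 bp upstream (chromosome 1, bases 8075596 to 8075987), a peak that is also within 1000 bp upstream of AT1G22830. AT4G16750 (A-4) had 143.81 inside the gene (chromosome 4, bases 9420885 to 9421196), and 92.65 within 1000 bp downstream, from 9420191 to 9420331, and both are shared with the neighbouring locus AT4G16748. AT4G32800 (A-4) had 92.65 at 2000 to 3000 bp upstream.

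WIND1 (RAP2.4, AT1G78080), which promotes callus formation at wounds, and its relative AT1G22190 both had a peak away from the gene start. WIND1 had 212.04 at 1000 to 2000 bp upstream and AT1G22190 had 193.88 at 2000 to 3000 bp upstream. The peak of AT1G22190 is also listed 2000 to 3000 bp upstream of AT1G22180. A higher peak, of 525.94 (chromosome 1, bases 29367140 to 29367532), lay within 3000 bp of WIND1 but beyond the stretch of 1000 bp downstream that the table covers, and it is listed for no target gene. It was noticed after the values were seen.

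In the ERF subfamilies, the cytokinin response factor genes CRF1 (AT4G11140) and CRF2 (AT4G23750) differed in score. CRF1 had 338.48 within 1000 bp downstream (chromosome 4, bases 6794534 to 6794767), at a peak of its own. CRF2 had 47.19 at 1000 to 2000 bp upstream. A higher peak, of 89.7 (chromosome 4, bases 12380040 to 12380199), lay within 3000 bp of CRF2 but is listed for AT4G23760 only. DRNL (AT1G24590), which acts in the founder cells of floral organs, had 266.42 at 2000 to 3000 bp upstream (chromosome 1, bases 8717742 to 8718183), and the same peak lay 2000 to 3000 bp upstream of AT1G24600. Its paralog DRN was not in the table.

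ERF12 (AT1G28360), of the same subfamily B-1, had peaks in both nearer upstream regions. The peak of 274.43 within 1000 bp (chromosome 1, bases 9950704 to 9951064), was its own, and the peak of 238.21 at 1000 to 2000 bp, from 9949983 to 9950296, was shared with AT1G28350. RAP2.2 (AT3G14230), which acts in the response to low oxygen, had 266.42 at 1000 to 2000 bp upstream (chromosome 3, bases 4740270 to 4740667), a peak that lay within 1000 bp downstream of AT3G14240. ERF14 (AT1G04370), a regulator of defence, had 173.69 at 1000 to 2000 bp upstream. ERF6 (AT4G17490), a stress regulator that restrains leaf growth, had 62.03 within 1000 bp upstream, and EDF3 (AT3G25730), of the RAV type, had 64.11 at 2000 to 3000 bp upstream, inside AT3G25727.

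Equal scores in this list do not mark a shared peak. CRF1 and AT1G22810 both had 338.48, and DRNL and RAP2.2 both had 266.42, from peaks on different chromosomes. Of the 1421 peaks, 1047 have a score that another peak also has, and the list holds 568 distinct scores.

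Among the 3 genes that only carry the letters, SAP18, part of a histone deacetylase complex, had peaks of 321.1 at 2000 to 3000 bp upstream (chromosome 2 from 18803938 to 18804272) and of 269.46 within 1000 bp upstream (from 18801657 to 18802050). Both peaks lie in the interval to the MADS-box gene AGL6 (AT2G45650), where the first is within 1000 bp upstream and the second at 2000 to 3000 bp. SHOT1, a mitochondrial protein gene linked to heat tolerance, had 306.1 within 1000 bp upstream (chromosome 3, bases 22328009 to 22328442), and AT1G74120 had 44.86 within 1000 bp upstream, at a peak shared with AT1G74130.

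**Figure D3:**
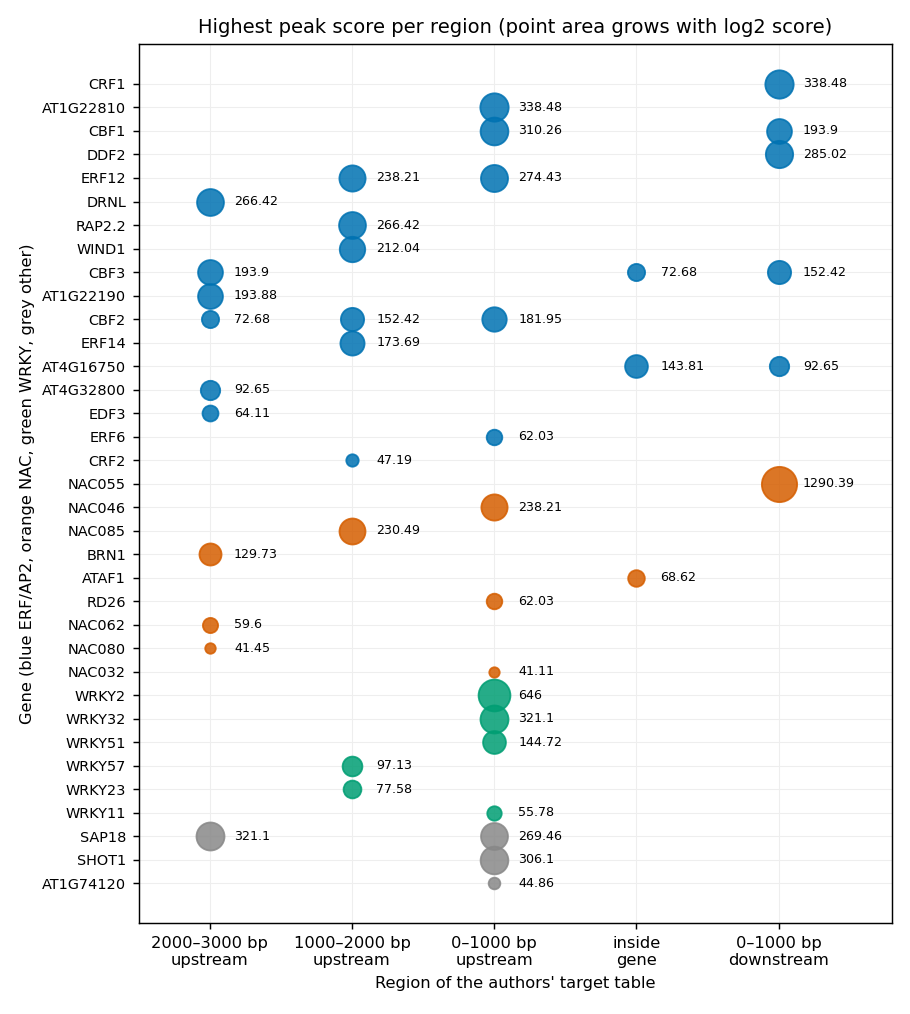
The highest Poisson score of each of the 35 genes in each of the 5 regions of the authors' table, with genes in the same order as in the plot of highest scores. The point area grows with the log2 score and the score is printed beside it. Most genes have a single point, CBF2 and CBF3 have 3, and the points of the 6 WRKY genes lie upstream.

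No region of the table held a share of the 32 genes that differed from all target genes by more than its wide interval. A peak within 1000 bp upstream was listed for 12 of 32 genes (37.5%, 95% exact interval 21.1 to 56.3%), against 35.2% of all target genes. At 1000 to 2000 bp upstream there were 9 of 32 (28.1%, interval 13.7 to 46.7%), against 19.3%, and at 2000 to 3000 bp upstream also 9 of 32, against 19.4%. Inside the gene there were 3 (9.38%, interval 1.98 to 25.0%), against 15.3%, and within 1000 bp downstream 6 (18.8%, interval 7.21 to 36.4%), against 19.3%. Each interval included the value of all target genes, and it treats genes as independent, although some share a peak.

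**Figure D4:**
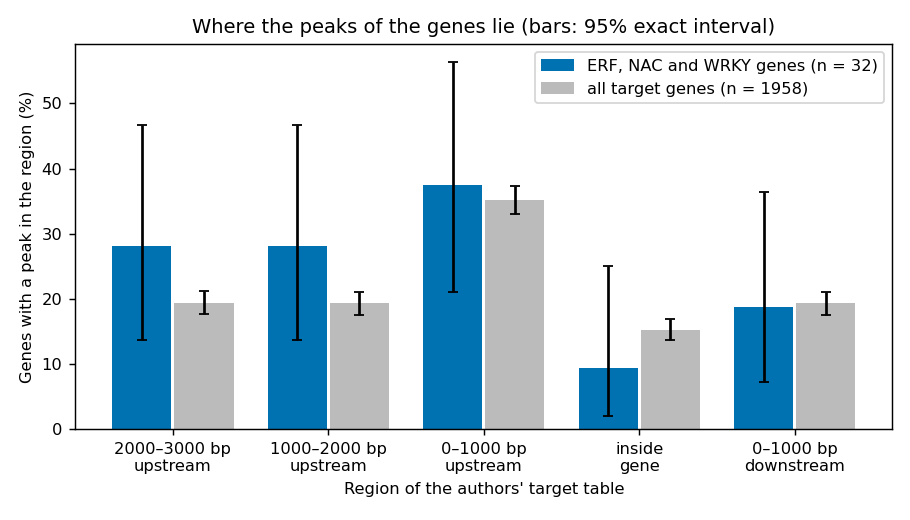
Percent of genes with a peak in each of the 5 regions, for the 32 ERF, NAC and WRKY genes (blue) and for all 1958 target genes (grey). Error bars are 95% exact binomial intervals over genes. The blue bars of both far upstream regions stand at 28.1%, above the grey bars, and every blue interval spans the grey value.

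Peaks in more than 1 region were found at 5 of 32 genes (15.6%, interval 5.28 to 32.8%), against 7.66% of all target genes. All 5 were ERF/AP2 genes, namely CBF1, CBF2, CBF3, ERF12 and AT4G16750, and 3 of the 5 CBF peaks are each listed for a pair of CBF genes. A peak that is also listed for another target gene was found at 21 of 32 genes (65.6%, interval 46.8 to 81.4%), against 74.5% of all linked target genes. Over all 35 genes there were 40 distinct peaks, of which 27 were linked to another target gene. Of the 32 genes, 23 were the nearest protein-coding gene of a peak position (71.9%, interval 53.3 to 86.3%), against 60% of the protein-coding target genes, a value inside the interval. For 8 of the 35 genes the highest peak lay in a nearer region of another target gene. Position alone does not tell which gene such a peak belongs to. The counts of 27 peaks and 8 genes have no count over all target genes beside them, so neither is read as particular to these genes. The 11 family genes whose peaks no other target gene shared were NAC055, CRF1, DDF2, NAC046, WIND1, ERF14, AT4G32800, WRKY23, WRKY11, CRF2 and NAC032.

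The families were also counted from the side of the genome. In the RefSeq gene table, 71 ERF/AP2 genes could be recognised by a family name, without the loci left out by the rule, and 14 of them (19.7%, 95% exact interval 11.2 to 30.9%) were in the target table. The share was 9 of 97 NAC genes (9.28%, interval 4.33 to 16.9%) and 6 of 71 WRKY genes (8.45%, interval 3.16 to 17.5%). Among all 27444 protein-coding genes it was 6.62%. The NAC and WRKY intervals included that value and the ERF/AP2 interval did not. Most of the loci left out by the rule are targets themselves, among them CUC1, CUC2 and CUC3 (NAC), TTG2 (WRKY), AP2, TOE3 and TEM1. They count in neither number of these family shares but do count in the 6.62%. The shares are thus not those of the whole families. The ERF/AP2 count by name is incomplete. AT1G22810, AT4G16750 and AT4G32800, which are targets, carry no family name in RefSeq, and many genes that are not targets are missing as well, since the sizes in the annotation text add up to 92 for the 8 subfamilies with a target alone. Of those 92 genes 15 were targets (16.3%, interval 9.42 to 25.5%), a share that leaves out every subfamily without a target. The share of the whole family is therefore not given by either count. The genes are also not independent draws, since 3 of the CBF peaks are listed for a pair of CBF genes.

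The ERF/AP2 result depended on which regions were counted. With a peak within 1000 bp upstream or inside the gene, 5 of the 71 ERF/AP2 genes were left (7.04%, interval 2.33 to 15.7%), and the interval included the 3.31% of all protein-coding genes. With scores at or above the median peak it was 11 (15.5%, interval 8.0 to 26.0%), against 3.42%. Another count took every gene that is the nearest protein-coding gene of a peak position, in the target table or not. It gave 12 of the 71 (16.9%, interval 9.05 to 27.7%), against 4.38% of all protein-coding genes. These 12 need not all be target genes.

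The space around the genes differed between the families. The median space to the neighbouring protein-coding genes, both sides added, was 6060 bp for the 17 ERF/AP2 genes, 2410 bp for the 9 NAC genes and 3600.5 bp for the 6 WRKY genes. It was 2555 bp for all target genes that are protein-coding and 1856 bp for all protein-coding genes. For all named family genes, targets or not, it was 4594 bp for 71 ERF/AP2 genes, 3463 bp for 97 NAC genes and 4146 bp for 71 WRKY genes. Among named family genes that were not in the table, the median was 4395 bp for 57 ERF/AP2 genes, 3493.5 bp for 88 NAC genes and 4146 bp for 65 WRKY genes. The ERF/AP2 targets thus had a higher median than the ERF/AP2 genes not in the table, and the NAC and WRKY targets a lower one. The part of this space in the shares was not tested.

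**Figure D5:**
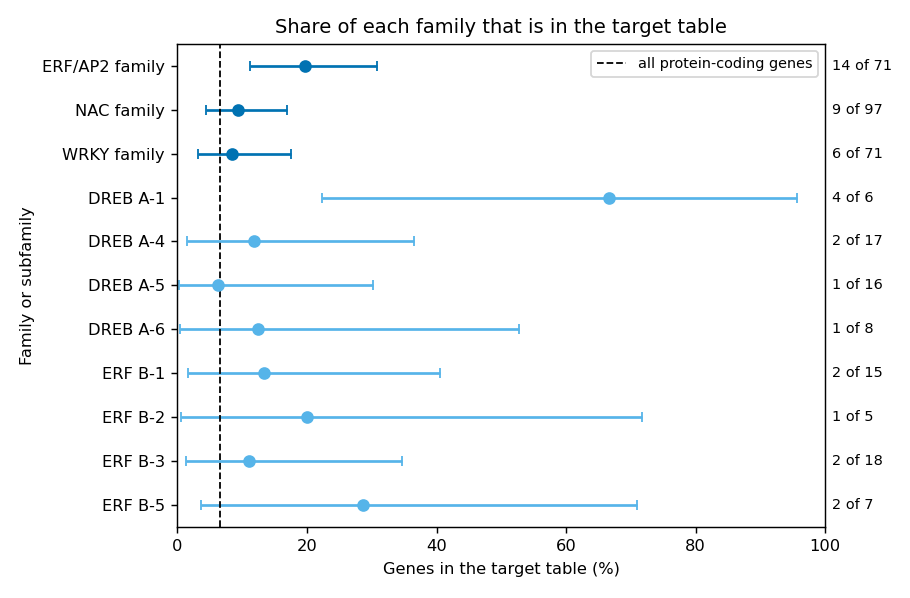
Percent of the genes of each family (dark blue, family size from RefSeq names) and of each ERF or DREB subfamily (light blue, size from the deposited annotation) that are in the target table, with 95% exact binomial intervals. The dashed line marks all protein-coding genes, 6.62%. DREB subfamily A-1 stands highest, with 4 of 6, of which 3 are the neighbouring CBF genes.

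A few genes of the ethylene pathway were in the table, at shares whose intervals include that of all protein-coding genes. The lists were chosen with earlier results of these data known, so these intervals are descriptive only. Of 14 genes for ethylene perception and signalling, 2 were targets (14.3%, interval 1.78 to 42.8%), against 6.62% of all protein-coding genes. EIN2 (AT5G03280), the central transducer of the ethylene signal, scored 922.88 inside the gene (chromosome 5, bases 792620 to 793056), higher than at any of the 17 ERF/AP2 genes. The peak is also linked to AT5G03285 and AT5G03290. The receptor gene EIN4 (AT3G04580) had 68.62 within 1000 bp upstream. ETR1, ETR2, ERS1, CTR1, EIN3 and EIL1 were among those not in the table. Of 11 ethylene synthesis genes, only ACO1 (AT2G19590), for an ACC oxidase, was a target (9.09%, interval 0.23 to 41.3%), with 327.59 within 1000 bp downstream, and ACS2, ACS4, ACS5, ACS6 and ACO4 were among the others.

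None of 5 secondary wall genes that act below NAC proteins was in the table (MYB46, MYB83, CESA4, CESA7 and CESA8). None of 9 defence signalling genes around WRKY proteins was either (NPR1, NPR3, NPR4, EDS1, PAD4 and MPK3 among them). With 0 genes found, shares of at most 60.0% and 33.3% are allowed, far above the 6.62% of all protein-coding genes, so a low share was not detectable here.

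In lists of well-known family genes, 6 of 20 ERF and AP2-domain genes were targets (30%), against 6.62% of all protein-coding genes. They were DRNL, WIND1, AIL6 and the 3 neighbouring CBF genes, and the list was chosen with the targets known. AIL6 (AT5G10510), which acts in floral organ growth, is outside the rule because its annotation does not name the domain, and it had a peak of 301.85 inside the gene. DRN, PUCHI, LEP, ERF1, ANT and SHN1 were among those not in the table. Of 21 NAC genes, 4 were targets (19.0%, interval 5.45 to 41.9%), namely NAC055, BRN1, ATAF1 and RD26, while NAP, which is named for its activation by AP3 and PI, was not, nor were NST1, SND1, VND7, SMB and ORE1. Of 13 WRKY genes, WRKY2 was the only one (7.69%, interval 0.19 to 36.0%), and WRKY33, WRKY53, WRKY70, WRKY40 and WRKY12 were among the others. The NAC and WRKY lists were also chosen with earlier results of these data known, so their intervals are descriptive only.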

How the data were processed

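AG-GFP and negative control inflorescences of Arabidopsis thaliana were compared by ChIP-seq, with 2 libraries in each group. Per the submitters' processing notes the genome build was TAIR10. Which aligner and peak caller were used, at what threshold, and whether replicates were pooled is not given in the sources used here. The plants are of the Ler-0 background, per the labels. The deposited peak list gives a Poisson score per peak, and the deposited target table holds, as made by the authors, the highest score in 5 regions from 3000 bp upstream to 1000 bp downstream of each gene, per the file headers. The headers for score and position are exchanged in the peak list. What stands under the score header lay within start and end for all 1421 peaks, so columns were read by their values.

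A gene was linked to a peak when the scores agreed within 0.006 and the peak lay within 3000 bp of the gene span in the RefSeq table of TAIR10.1, from which no coordinate is printed. Of 1958 target genes, 1916 matched it and 1915 were linked. Linking was tested on simulated data, with peaks of distinct scores placed inside a gene or just beside its span. Equal scores and the farther regions were not covered by it. Shares carry 95% exact Clopper-Pearson intervals over genes, which cover counting error only. For a count of 0, a rough upper limit of 3 genes of the list is given as well. No significance test was run, since no library has a value. Every gene chosen by the rule is named, with positions for the 12 highest scores, the 3 highest per family and genes with peaks in several regions. Members and lists were chosen with earlier results of these data known. No genome sequence was used here, so the planned CArG-box counts were not made. Python 3.11.15, pandas 2.3.3, numpy 2.4.6, scipy 1.17.1 and matplotlib 3.10.9 were used.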

Additional observations from a re-analysis of the deposited data

How the results depend on the processing

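The number of genes, 35 as reported, was 21 with scores at or above the median peak and 18 with a peak within 1000 bp upstream or inside the gene. It was 29 with families read from RefSeq names, and in alternatives chosen after seeing the data 37 with letters matched in either case and 32 without the genes that only carry the letters. With a peak within 1000 bp upstream or inside the gene, the ERF/AP2 share of 19.7% became 7.04% and the NAC share of 9.28% became 4.12%, against 3.31% of all protein-coding genes. The ERF/AP2 interval, 2.33 to 15.7%, then included 3.31%, while with the other alternatives it lay above the share of all protein-coding genes. All of these use the same incomplete list of 71 genes recognised by name, so they are not independent of each other. With scores at or above the median peak, the NAC share was 3.09%, against 3.42%. The other alternatives kept the shares of the 3 families within their 95% intervals. Among them, the nearest gene only was counted whether or not it was in the target table. It gave 16.9% for ERF/AP2, 6.19% for NAC and 7.04% for WRKY genes, against 4.38% of all protein-coding genes. The share with a peak within 1000 bp upstream and the number of shared peaks also stayed within their limits. No library could be left out, since the tables hold no value per library. No paired analysis was possible because the deposited columns carry no replicate. The CArG-box alternatives were not run.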
